A study of Mus musculus with 6 samples.

Results

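The genes described here are 9 genes known from meningeal fibroblasts, other than collagens, measured in the cerebellum of newborn mice: Ptgds, Foxc1, Aldh1a2, Slc6a13, Dcn, Lum, Ogn, Islr and Pcolce. They were chosen by name, and each symbol was found in 1 of the 23793 loci of the deposited table. The data are 6 RNA-seq libraries of whole cerebellum at postnatal day 0, 3 from controls (Zeb2 f/+; hGFAP-cre) and 3 from conditional knockouts (Zeb2 f/f; hGFAP-cre; cKO below). Both groups carry hGFAP-cre, in which a human GFAP promoter directs Cre to progenitors of the neural tube and to glia, and the controls keep 1 Zeb2 allele without lox sites. The labels give neither the strain nor the number of animals behind a library, so p-values describe only how far these libraries vary, which may be technical.

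The meninges are sheets of fibroblasts, vessels and immune cells that cover the brain and secrete its outer basement membrane. They arise from mesenchyme and not from the neural tube, and over the developing cerebellum they release signals such as Cxcl12 to the granule neuron progenitors beneath. Foxc1 is a forkhead transcription factor required for the meninges to form, Aldh1a2 makes retinoic acid, and Ptgds, prostaglandin D2 synthase, is an abundant secreted product of the leptomeninges. Slc6a13 transports GABA and taurine across meningeal cell membranes, Dcn, Lum and Ogn (decorin, lumican and osteoglycin) are small leucine-rich proteoglycans that bind collagen fibrils, Pcolce enhances the cleavage of procollagen, and Islr encodes a cell surface protein of mesenchymal stromal cells.

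The values are FPKM, a level scaled for transcript length and library size, and library sums lay between 497542 and 524474 FPKM. Zeb2 stood at 11.4, 9.52 and 7.995 FPKM in controls 1, 2 and 3 and at 6.19, 3.89 and 5.81 FPKM in cKO 1, 2 and 3. All controls had Y-linked transcripts and all cKO libraries had Xist, so effects of genotype and of sex cannot be told apart. In low values the libraries fell into sets with a shared pattern of steps: control 1 and cKO 3 formed one, and the other 4 libraries the second. The read depth is unknown and limits the precision of values under 1 FPKM. In bulk tissue, fewer cells of a type and less RNA per cell cannot be told apart.

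RefSeq (GRCm38.p6) gave promoter windows for 7 of the 9 genes, and Dcn and Lum had no entry. The 250 bases before the start were searched on both strands for CACCTG, letters of the E-box that Zeb family zinc fingers bind. The motif occurred in 17.2% of all 32851 windows and in 2 of the 9 windows of these 7 genes. The 4 sequences shown are the 2 with the motif, in capitals, and those of Ptgds and Islr, whose levels differed in opposite directions. In Aldh1a2 the motif's first base lay at position -11 from the start, and in Pcolce at -238. A match is a description of these letters and says nothing of binding.
Aldh1a2, chr9:71215539-71215788, plus strand: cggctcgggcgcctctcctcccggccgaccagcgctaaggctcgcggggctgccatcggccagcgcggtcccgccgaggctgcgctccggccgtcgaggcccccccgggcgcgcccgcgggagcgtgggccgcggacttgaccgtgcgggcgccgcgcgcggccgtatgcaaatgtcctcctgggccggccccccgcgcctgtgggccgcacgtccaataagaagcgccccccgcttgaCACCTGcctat
Pcolce, chr5:137611405-137611654, minus strand: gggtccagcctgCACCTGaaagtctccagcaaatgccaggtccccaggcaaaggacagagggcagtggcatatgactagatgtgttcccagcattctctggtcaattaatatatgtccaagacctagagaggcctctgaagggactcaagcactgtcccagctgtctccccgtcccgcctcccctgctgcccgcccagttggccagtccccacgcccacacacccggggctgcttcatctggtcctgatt
Ptgds, chr2:25469750-25469999, minus strand: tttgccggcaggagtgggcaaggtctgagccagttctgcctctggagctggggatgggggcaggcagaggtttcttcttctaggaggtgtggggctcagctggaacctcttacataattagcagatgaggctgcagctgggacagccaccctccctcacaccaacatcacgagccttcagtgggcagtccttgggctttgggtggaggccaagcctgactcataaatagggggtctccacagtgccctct
Islr, chr9:58158555-58158804, minus strand: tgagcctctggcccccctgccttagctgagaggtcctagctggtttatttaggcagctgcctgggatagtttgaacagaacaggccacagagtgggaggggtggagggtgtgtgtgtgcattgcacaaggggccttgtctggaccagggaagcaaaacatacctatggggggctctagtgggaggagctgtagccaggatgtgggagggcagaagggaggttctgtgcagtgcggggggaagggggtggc

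Of the 9 genes, 7 reached 1 FPKM in at least 3 libraries and were tested with limma on log2(FPKM + 1). None of the 7 passed an adjusted p of 0.05, a threshold that 0.573% of the 13612 tested loci passed, 0.242% higher and 0.331% lower in cKO. Before adjustment, 3 of the 7 had a p under 0.05, Ptgds and Foxc1 higher and Islr lower in cKO, against 17.6% of tested loci (7.82% higher and 9.79% lower). Of the controls, only control 1 reached 1 FPKM for Foxc1, so the group where it was higher let it enter the test. Over all 9 genes, 8 had a positive log2 difference (cKO minus control) and 1, Islr, a negative one, with a median of 0.47 against -0.0095 over all tested loci. That median was 0.73 without control 1, 0.32 without control 3 and 1.16 at a pseudocount of 0.1. The groups did not overlap for Ptgds, Foxc1 and Ogn, all higher in cKO, or for Islr, lower in cKO. The groups were likewise apart for 23.9% of tested loci, 10.3% higher and 13.6% lower in cKO.

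**Figure D1:**
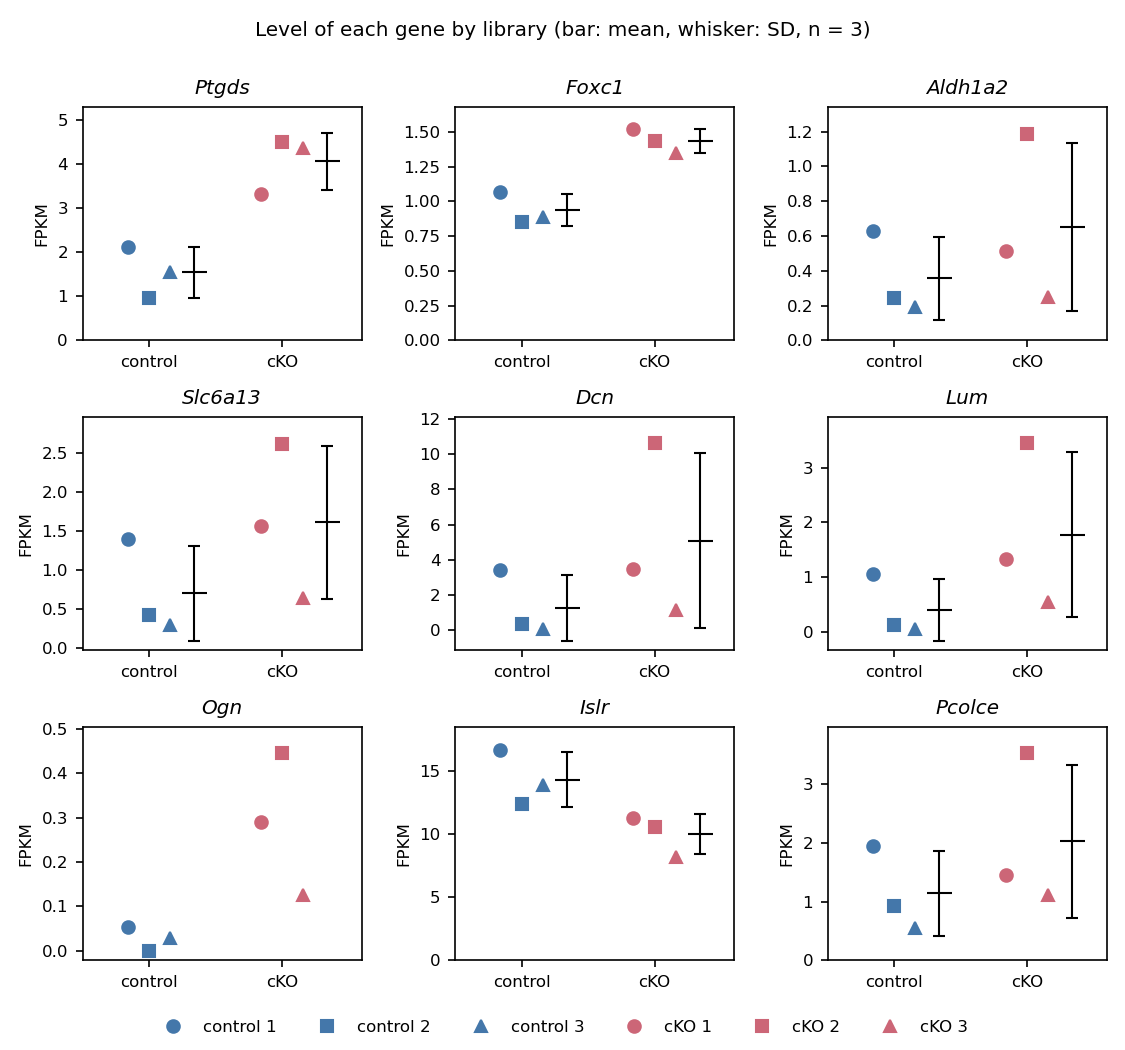
FPKM of each of the 9 genes (one panel each, vertical axes from their own zero) in the 3 control and 3 cKO libraries, with points for libraries, and the mean with its SD beside them (not drawn for Ogn, which is listed at 0 in control 2). Control 1 is the highest control in all 9 panels and cKO 2 the highest cKO library in 7.

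Ptgds (GRCm38 chromosome 2, 25466709 to 25470046, minus strand) was the gene with the smallest p. Controls 1, 2 and 3 gave 2.12, 0.954 and 1.54 FPKM and cKO 1, 2 and 3 gave 3.31, 4.51 and 4.36 FPKM. Every cKO library lay above every control. The means were 1.54 ± 0.583 and 4.06 ± 0.654 FPKM (SD, n = 3 each), a ratio of 2.64. The log2 difference was 1.01 (SE 0.18, limma adjusted p = 0.0732), so Ptgds did not pass. It passed with loci of small RNAs left out of the fit (limma adjusted p = 0.0261). In that fit 330 of 13378 loci passed, against 78 of 13612 in the main fit. Over all 18 alternatives the limma adjusted p of Ptgds ran from 0.0261 to 0.206. Unlike Dcn, Ptgds was nearly as high in cKO 3 as in cKO 2.

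Foxc1 (chromosome 13, 31806633 to 31812476, plus strand), the transcription factor of the group, varied least among libraries. It stood at 1.07, 0.855 and 0.885 FPKM across controls, against 1.52, 1.43 and 1.35 FPKM in cKO. The groups were apart, with a ratio of the means of 1.53. The log2 difference was 0.33 (SE 0.08, limma adjusted p = 0.119) and lay between 0.30 and 0.57 under 18 alternatives, none of which passed.

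Aldh1a2 (chromosome 9, 71215789 to 71296243, plus strand), the retinoic acid enzyme, reached 1 FPKM in 1 library only and was left out of the main limma fit. Without a filter its limma adjusted p was 0.666. Its levels were 0.631, 0.245 and 0.193 FPKM across controls, against 0.513, 1.19 and 0.252 FPKM in cKO. The groups overlapped, and control 1 lay above cKO 1 and cKO 3. The exact permutation p of the means (two-sided) was 0.5, where 0.1 is the smallest that 3 against 3 libraries allow.

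Slc6a13 (chromosome 6, 121300227 to 121337733, plus strand), the transporter, stood at 1.40, 0.416 and 0.290 FPKM in the controls. In cKO it stood at 1.56, 2.61 and 0.645 FPKM. Control 1 lay above cKO 3, and the log2 difference was 0.60 (SE 0.34, limma adjusted p = 0.411). Its level spanned 9.02-fold from the lowest library, control 3, to the highest, cKO 2.

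The proteoglycan genes Dcn and Lum had the widest spread between libraries, by fold, of the 8 genes with a value above 0 in every library. They are neighbours on chromosome 10 (Dcn 97479609 to 97518143, Lum 97565128 to 97572703, both plus strand), 46984 bases apart. Dcn was at 3.41, 0.362 and 0.0417 FPKM across controls, against 3.47, 10.65 and 1.14 FPKM in cKO. Control 1 was thus level with cKO 1 and above cKO 3, while control 3 was the lowest library. The level spanned 255-fold from control 3 to cKO 2, and among the controls alone it spanned 81.7-fold. Lum was at 1.06, 0.126 and 0.0532 FPKM across controls, against 1.33, 3.45 and 0.551 FPKM in cKO. It spanned 64.9-fold over the 6 libraries and 20.0-fold within the controls, and 1.09% of tested loci spanned as much as Lum or more over the 6 libraries. The median span of all tested loci was 1.25-fold.

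Neither proteoglycan gene differed between genotypes beyond this spread. The log2 difference of Dcn was 1.39 (SE 0.73, limma adjusted p = 0.385), with means of 1.27 ± 1.86 and 5.09 ± 4.96 FPKM (SD, n = 3 each). That of Lum was 0.91 (SE 0.42, limma adjusted p = 0.323), with means of 0.414 ± 0.563 and 1.78 ± 1.50 FPKM. Dcn stood at 3.21, 2.87 and 0.784 times the level of Lum in controls 1, 2 and 3 and at 2.60, 3.09 and 2.07 times in cKO 1, 2 and 3. In 5 libraries the ratio of these neighbours was thus between 2.07 and 3.21, and in control 3 both values were under 0.1 FPKM.

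Ogn (chromosome 13, 49608046 to 49624501, plus strand) was the lowest of the 9 genes. It was at 0.0523 FPKM in control 1, listed at 0 in control 2 and at 0.0284 FPKM in control 3. In cKO 1, 2 and 3 it was at 0.290, 0.445 and 0.125 FPKM, above every control. Ogn was under 1 FPKM in every library and not tested with limma in the main analysis, and its exact permutation p (two-sided) was 0.1, the smallest these group sizes allow. Without a filter the limma adjusted p was 0.215. Ogn lies inside Cenpp, a gene on the other strand at 4.75 to 6.35 FPKM. Whether the counting used strand is unknown, so reads of the pair cannot be told apart.

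Pcolce (chromosome 5, 137605103 to 137613784, minus strand), the procollagen processing enhancer, was at 1.95, 0.934 and 0.546 FPKM across controls, against 1.46, 3.53 and 1.11 FPKM in cKO. Control 1 lay above cKO 1 and cKO 3. The log2 difference was 0.47 (SE 0.34, limma adjusted p = 0.521). In the annotation Pcolce overlaps Fbxo24 on the same strand, which stood at no more than 0.322 FPKM in any library.

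Islr went the other way. It was at 16.7, 12.4 and 13.8 FPKM across controls, against 11.2, 10.6 and 8.18 FPKM in cKO, and every cKO library lay under every control. The means were 14.3 ± 2.17 and 9.98 ± 1.60 FPKM (SD, n = 3 each), and the log2 difference was -0.48 (SE 0.14, limma adjusted p = 0.167). It kept its negative sign in all 19 alternatives, between -0.57 and -0.25, and passed in none. Islr was also the most abundant of the 9 genes on the FPKM scale in 5 of the libraries. Within each group its libraries had the order of Foxc1, with control 1 the highest control and cKO 3 the lowest cKO library, and its span over the 6 libraries was 2.04-fold. In control 3, where Dcn was at 0.0417 FPKM, Islr was at 13.8 FPKM, 331.6 times as high, while in cKO 2 Islr stood at 0.99 times the level of Dcn.

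The locus of Islr limits what its value means. In GENCODE M21 the gene (chromosome 9, 58156268 to 58204306, minus strand) overlaps Islr2, a neuronal member of the same family on the same strand. Islr2 stood at 285.7 to 303.0 FPKM across controls, against 318.2 to 323.3 FPKM in cKO, with a log2 difference of 0.12 (SE 0.05, limma adjusted p = 0.313). How the authors' counting divided reads between these loci is unknown. The level of Islr is therefore uncertain as a measure of fibroblast RNA.

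The order of the libraries was shared among several of the genes. Dcn, Lum and Slc6a13 had the same order from high to low: cKO 2, cKO 1, control 1, cKO 3, control 2, control 3. Of the 13612 tested loci, 22 (0.162%) had that order, these 3 included. The collagen genes Col3a1 and Col1a1, named after their values were seen, were among them. Col3a1 was at 9.28, 1.70 and 1.24 FPKM across controls, against 10.1, 23.1 and 3.49 FPKM in cKO, a span of 18.6-fold. Pcolce and Aldh1a2 differed from the order of Dcn only in that control 1 lay above cKO 1.

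**Figure D2:**
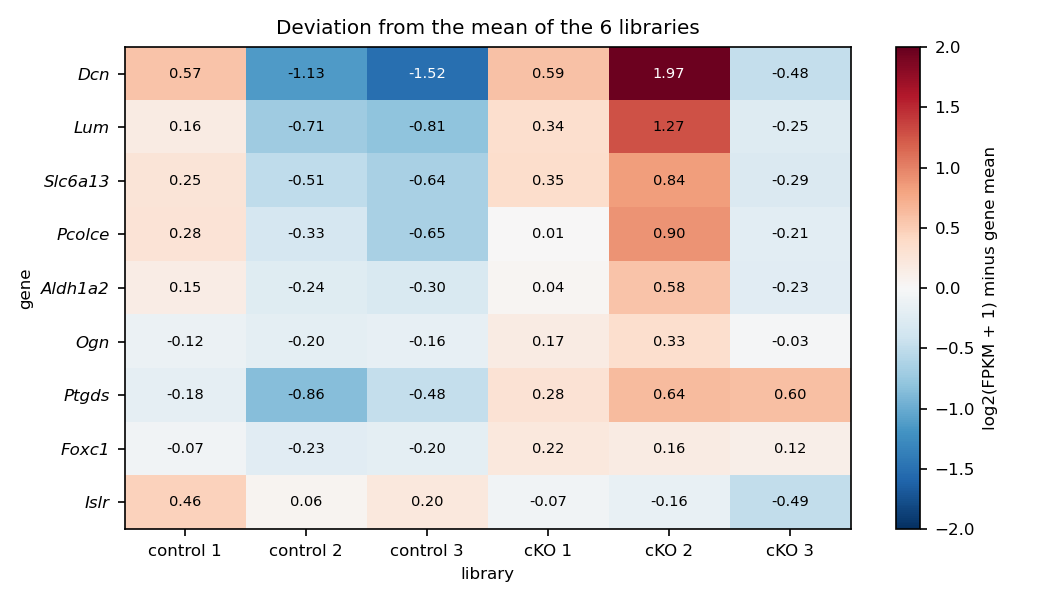
Each cell is the log2(FPKM + 1) of a gene (rows) in a library (columns) minus that gene's mean over the 6 libraries, with red above and blue below the mean. Dcn runs from -1.52 in control 3 to 1.97 in cKO 2, and the column of cKO 2 is above the mean for every gene except Islr.

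Control 1 and cKO 2 were the high libraries of their groups. Control 1 was the highest control for all 9 genes, as it was for 39.5% of tested loci. The cKO 2 library was the highest cKO library for 7 of 9, as for 31.9% of tested loci. The lowest cKO library was cKO 3 for 8 of 9, and the share of tested loci with cKO 3 lowest was not computed. Summed over the genes without Islr, which was set aside after its values were seen, the level was 11.7, 3.89 and 3.58 FPKM across controls, against 13.45, 27.8 and 9.53 FPKM in cKO. Control 1 thus lay above cKO 3 on the summed scale.

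The comparison depended on which libraries were set side by side. The samples were deposited in 2 blocks, the first holding controls 1 and 2 with cKO 1 and 2, and the second control 3 with cKO 3. In the first, cKO means of Dcn, Lum, Slc6a13, Ptgds and Foxc1 stood at 3.75, 4.02, 2.30, 2.54 and 1.53 times those of the controls. In the second, the ratios of cKO 3 to control 3 were 27.4, 10.4, 2.23, 2.82 and 1.52. Both cKO libraries of the first block lay above both controls for 6 of the 9 genes, against 22.6% of tested loci. The cKO 3 library lay above control 3 for 8 of 9, all but Islr, against 48.2% of tested loci.

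The sets with a shared step pattern were compared too. With cKO 1 and 2 against controls 2 and 3, both cKO libraries lay above both controls for 8 of 9 genes, against 23.8% of tested loci, and Dcn and Lum stood at 35.0 and 26.7 times the control level. The other set has 1 library of each genotype and gives no test. There cKO 3 stood under control 1 for Dcn, Lum, Slc6a13, Pcolce and Aldh1a2, at 0.335, 0.518, 0.461, 0.569 and 0.399 times its level, and also for Islr, at 0.491 times, so for 6 of 9 genes, as for 53.9% of tested loci. Ptgds, Foxc1 and Ogn were higher in cKO 3 than in control 1, at 2.06, 1.26 and 2.39 times. For these 3 genes and Islr, whose groups do not overlap, the direction in every subset follows from that. The labels do not say how the meninges were handled when the cerebellum was taken, and the part of dissection in the spread was not tested.

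**Figure D3:**
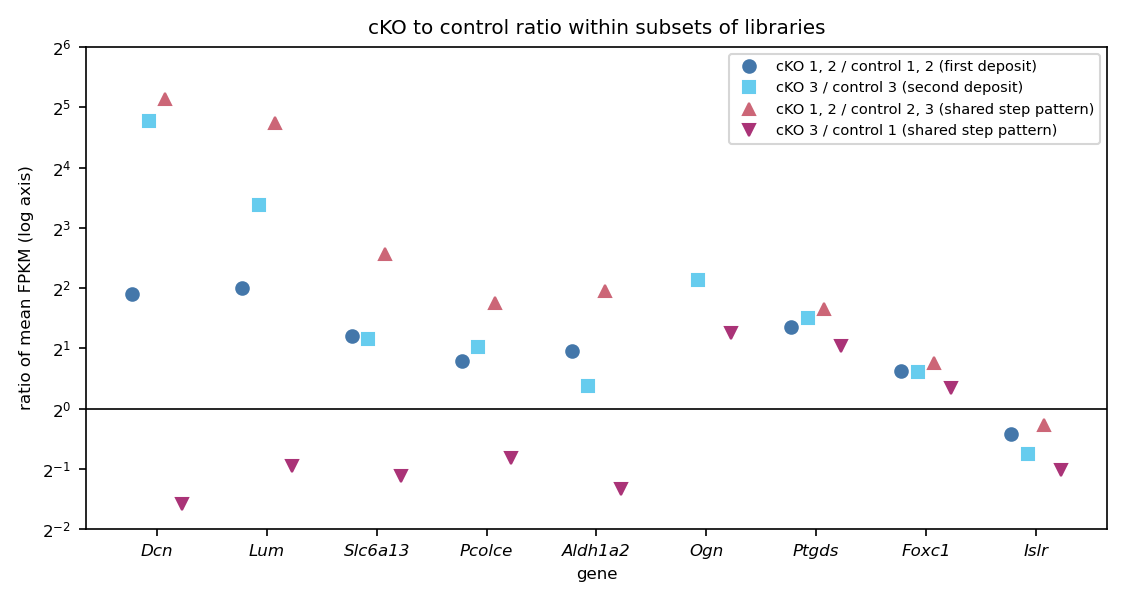
Ratio of mean FPKM in cKO to control (log axis, the line marks equal levels) for each gene in 4 subsets of the libraries; the subsets share libraries. For Ogn only the ratios without control 2, which is listed at 0, are drawn. For Dcn, Lum, Slc6a13, Pcolce and Aldh1a2 the ratio of cKO 3 to control 1 is under 1 and the other 3 are above it.

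Other genes of meningeal fibroblasts were counted from a fixed list. Of 32 such genes, all in the table, 16 were tested, 0 rose and 1 fell by limma. Before adjustment 8 had a p under 0.05 (5 higher, 3 lower), against 17.6% of tested loci. Over all 32, 26 had a positive log2 difference, with a median of 0.12. The gene that fell was Mfap4, a microfibril-associated protein that granule neuron progenitors also express, from 69.9 ± 13.1 to 18.5 ± 5.31 FPKM (SD, n = 3 each; log2 difference -1.88, SE 0.21, limma adjusted p = 0.0235). It lost this call in 8 of 19 alternatives (highest adjusted p 0.166), among them those without control 1, control 2, cKO 1 or cKO 2. Igfbp2, an insulin-like growth factor binding protein, was at 116, 108 and 132 FPKM across controls, against 168, 183 and 157 FPKM in cKO (limma adjusted p = 0.0724). Prrx2, a homeobox gene of mesenchyme, was at 2.07, 1.60 and 2.26 FPKM against 4.16, 4.25 and 3.15 FPKM (limma adjusted p = 0.0732). Some members of this list, Igfbp2 and Pdgfra among them, are also made by neural cells.

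The collagens and the other proteoglycans were compared as lists. Of 13 collagen genes, 11 were tested and 0 passed by limma, with 3 under 0.05 before adjustment, against 17.6% of tested loci. The median log2 difference over the 13 was 0.32. Col6a1 was at 6.67, 6.44 and 6.25 FPKM across controls, against 10.3, 13.5 and 8.08 FPKM in cKO (limma adjusted p = 0.132), whereas Col12a1 was lower in cKO (log2 difference -0.38, adjusted p = 0.188) and Col15a1 higher (0.62, adjusted p = 0.246). Of 16 small leucine-rich proteoglycans, Dcn, Lum and Ogn included, 7 were tested and 0 passed, with a median of 0.03. Before adjustment 1 was under 0.05, near the share of 17.6% over all tested loci. Bgn, biglycan, the closest relative of Dcn, was at 6.14, 5.45 and 4.84 FPKM across controls, against 7.53, 11.7 and 5.89 FPKM in cKO (limma adjusted p = 0.299). It had the library order of Dcn, at a span of 2.41-fold. Tsku and Ecm2 had log2 differences of -0.16 and -0.22 without passing.

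Around each enzyme and transporter the pathway was counted from fixed lists. Of 16 prostaglandin genes, 7 were tested and 0 passed by limma. Before adjustment 4 had a p under 0.05, all higher in cKO, against 7.82% of tested loci. Beside Ptgds these were Ptgs1, cyclooxygenase 1, at 1.12, 1.20 and 0.959 FPKM across controls, against 1.64, 1.87 and 1.91 FPKM in cKO (limma adjusted p = 0.0812), Hpgds, the haematopoietic prostaglandin D synthase, at a log2 difference of 0.35 (adjusted p = 0.0947), and Ptges, a prostaglandin E synthase, at 0.36 (adjusted p = 0.138). Hpgds reached 1 FPKM only in the cKO libraries, which let it enter the test. Of 18 retinoic acid genes, 12 were tested and 0 passed, with 4 under 0.05 before adjustment, all lower, against 9.79% of tested loci. The receptors Rxrg and Rxra had log2 differences of -0.68 and -0.43, and Dhrs3, a retinaldehyde reductase, -0.38. The median over the 18 was 0.02.

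Among relatives of Slc6a13, Slc6a11, the astrocytic GABA transporter GAT3, was at 57.3, 47.4 and 59.2 FPKM across controls, against 74.2, 72.5 and 75.5 FPKM in cKO (limma adjusted p = 0.0825), and did not pass. Slc6a12, next to Slc6a13 on the chromosome, was under 0.1 FPKM in every library. Of 20 procollagen processing genes, 16 were tested and 0 passed by limma, with 5 under 0.05 before adjustment, against 17.6% of tested loci. Adamts14 and P4ha3 had log2 differences of -0.43 and -0.52, and Adamts3 of 0.34.

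Signals that the meninges send to the cerebellum were measured as a list of 12. Of these, 9 were tested and 0 passed by limma, while 3 had a p under 0.05 before adjustment, all higher, against 7.82% of tested loci. Bmp7, a bone morphogenetic protein, was at 3.66, 3.85 and 3.51 FPKM across controls, against 4.98, 6.79 and 4.74 FPKM in cKO (limma adjusted p = 0.136). Cxcl12, the chemokine that holds granule neuron progenitors at the surface, was at 35.7, 29.9 and 32.2 FPKM against 39.8, 45.8 and 35.0 FPKM (adjusted p = 0.243). Igf2, a growth factor of the meninges and choroid plexus, was at 20.1, 11.0 and 13.6 FPKM against 25.9, 28.5 and 18.0 FPKM (adjusted p = 0.224). In Cxcl12 and Igf2 the groups overlapped, with control 1 above cKO 3.

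Markers of other cell types that border or enter the meninges were summed in each library. Summed levels of 14 endothelial genes lay between 120.5 and 147.6 FPKM in the controls and between 155.2 and 171.0 FPKM in cKO, and those of 14 microglia and macrophage genes between 59.5 and 62.4 and between 74.0 and 82.5 FPKM. For both lists the groups were apart, and all genes of the lists had a value above 0 in at least 1 library. The separation of the endothelial sums rested on Mfsd2a. From control 3 to cKO 3, the closest pair, the sum went from 147.6 to 155.2 FPKM and Mfsd2a alone from 19.6 to 29.5 FPKM. Only 3 of the 14 endothelial genes were apart on their own, all higher in cKO, against 10.3% of tested loci. Of the 14 microglia genes 10 were tested and 1, Csf1r, rose (limma adjusted p = 0.0483), from 4.10 to 6.13 FPKM on average, a call lost in 14 of 19 alternatives, among them each of the 6 libraries left out in turn (adjusted p 0.0616 to 0.195). Before adjustment, 9 of the 10 had a p under 0.05, all higher in cKO, against 7.82% of tested loci. Among them Aif1 reached 1 FPKM only in the cKO libraries, which let it enter the test. None of the 14 endothelial genes passed by limma. Before adjustment 4 had a p under 0.05, Mfsd2a first (limma adjusted p = 0.0788), against 17.6% of tested loci.

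The remaining lists were summed in the same way. The sum of 12 pericyte and smooth muscle genes ran from 43.4 to 47.3 FPKM in the controls and from 46.0 to 54.2 FPKM in cKO, that of 14 choroid plexus genes from 35.2 to 44.2 and from 29.1 to 52.8 FPKM, and that of 9 erythroid loci from 6.62 to 26.1 and from 12.3 to 13.9 FPKM. The choroid plexus transcript Ttr, at 0.994, 4.24 and 6.16 FPKM across controls, against 0.832, 11.0 and 1.02 FPKM in cKO, was high in cKO 2, as Dcn was, but low in control 1. Genes of skull, cartilage and muscle summed to 14.4 to 21.2 FPKM across controls, against 10.9 to 14.4 FPKM in cKO. Most of the control sum was Col2a1, which neural progenitors also express. It was at 10.5, 13.7 and 7.81 FPKM across controls, against 4.44, 3.14 and 6.66 FPKM in cKO, so the sums say little of skull or muscle. Hindbrain Hox genes, markers of brainstem, summed to 0.130 to 0.147 FPKM in the controls and 0.193 to 0.436 FPKM in cKO. These sums lie near the floor: 10 of the 12 genes were under 0.1 FPKM in all libraries, 2 of them at 0 throughout. None of the 12 had a value above 0 in every library. The 10 granule neuron genes summed to 911.5 to 1036 FPKM across controls, against 806.9 to 924.5 FPKM in cKO. Mfap4 is in this list too, and alone went from 69.9 to 18.5 FPKM on average. Of the 10, 8 had a negative and 2 a positive log2 difference. The part of these cell types in the levels of the 9 genes was not tested.

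**Figure D4:**
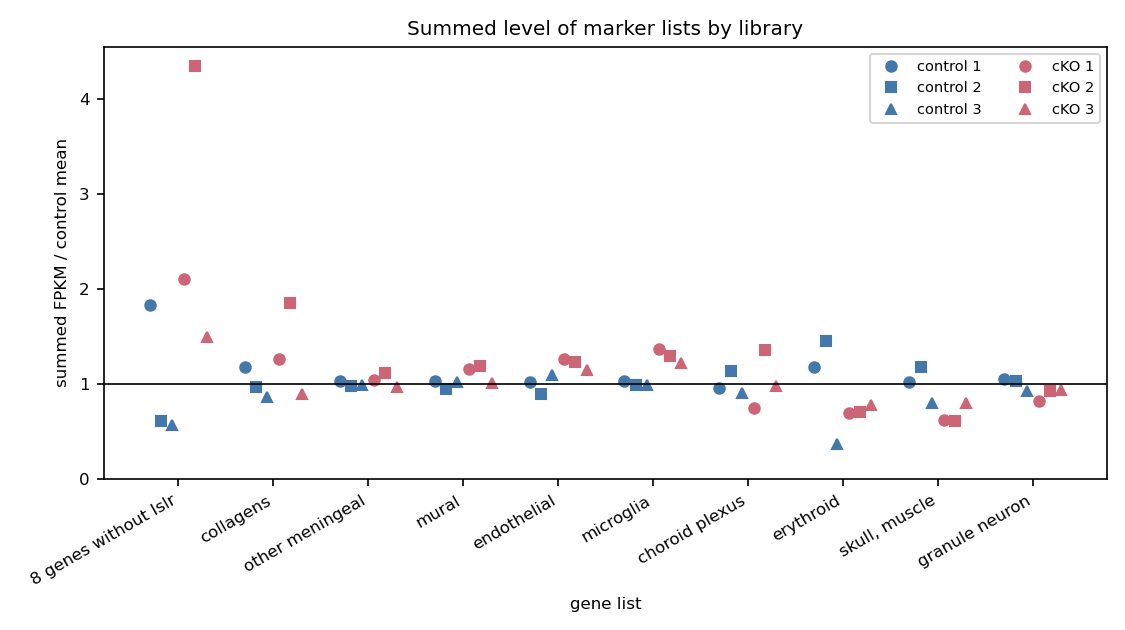
Summed FPKM of marker lists (horizontal axis) in each library, divided by the mean of the 3 controls, with blue for controls and red for cKO. The 8 genes without Islr are highest in cKO 2, at 27.8 FPKM before division. They spread more widely than the other lists drawn, but Islr was set aside after its values were seen and the other lists kept all their genes. With Islr the 9 genes summed to 16.3 to 28.4 FPKM across controls, against 17.7 to 38.4 FPKM in cKO.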

How the data were processed

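RNA was measured in 6 cerebellum libraries. The submitters' processing notes name CASAVA, TopHat, Cufflinks and build mm10. The deposited values are taken to be FPKM, inferred from Cufflinks and the values, since no label names it. Versions, annotation and strand setting are not given in these sources. Columns were matched to samples by title. The description of cKO 1 carries the number 3. Loci that reached 1 FPKM in 3 or more libraries entered a limma fit (version 3.58.1 in R 4.3.3, with a trend, two-sided) on log2(FPKM + 1), a scale that understates changes of low genes, with Benjamini-Hochberg adjustment over all 13612 loci and a threshold of 0.05. The fit was tested on simulated data. Positions are from GENCODE M21 (GRCm38). The step pattern came from values under 0.1 FPKM: in 7 of 15 pairs of libraries 24.1 to 32.9% of ratios fell in a window of 0.06 log2 units, against 7.25 to 8.76% in the others. The members and lists were chosen with earlier results of these data known. Named were all 9 genes, Zeb2, any list gene past the threshold and, from each list of fibroblast genes, pathways or signals, the 3 tested genes of lowest p. Lists of other cell types were given as sums, with Mfsd2a, Col2a1 and Mfap4 named beside them. Col3a1, Col1a1, Bgn, Ttr, Ptges, Slc6a12, Aif1 and the genes that overlap members were named after their values were seen. One list gene is not reported here. Figures were made with Python 3.11.15 and matplotlib 3.10.9.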

Additional observations from a re-analysis of the deposited data

How the results depend on the processing

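Alternatives were other pseudocounts (0.1, 0.5), filters, scalings, library weights, a replicate block, the deposit as a covariate, small RNA or sex chromosome loci left out, and each library left out; the step-pattern set, as a covariate or alone, was added after seeing the data. None of the members passed (limma) in any of them, except 1, Ptgds, with small RNA loci left out. With 1 library left out, 3 to 6 of the 7 tested had an unadjusted limma p under 0.05. That count was 6 with the deposit as a covariate, 6 with library weights and 7 with controls 2 and 3 and cKO 1 and 2 only. It was 4 without small RNA loci, and 3 at the other pseudocounts and scalings. The share of all tested loci under 0.05 in these fits was not computed. The median log2 difference of the members, 0.47 in the main analysis, became 1.16 at a pseudocount of 0.1. It was 0.95 with controls 2 and 3 and cKO 1 and 2 only, and ran from 0.32 to 0.73 with 1 library left out. It covers all 9 genes, so filters do not bear on it. Of the genes in the other lists (sex-linked genes and Zeb2 aside), 4 of 126 tested passed. That count became 2 of 213 without a filter and 1 of 69 at a mean of at least 5 FPKM. Without small RNA loci it was 13 of 126, where 330 of all 13378 loci passed, against 78 of 13612 in the main fit. It became 0 with the deposit as a covariate (50 unadjusted) and 0 in the 4 libraries of the second step pattern (54 unadjusted). With 1 library left out it was 0 to 3. It was 0 without control 1 (44 unadjusted) or control 2 (35 unadjusted), 3 without control 3 and 1 without each cKO library in turn, not always the same genes. With the replicate block it was 0 (45 unadjusted), and 0 members passed (3 unadjusted). Same-numbered libraries correlated at r = -0.0268, 0.0373 and 0.0488 in their deviations from group means. Deviations within a group of 3 sum to 0, so these values cannot decide whether same-numbered libraries shared a litter or day.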

Other observations

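Among 14 genes of skull, cartilage and muscle, 4 were tested and 1 passed. Runx2, a transcription factor of bone and cartilage, rose from 0.249, 0.313 and 0.372 FPKM in the controls to 1.11, 1.22 and 1.06 FPKM in cKO (log2 difference 0.70, SE 0.08, limma adjusted p = 0.025). It reached 1 FPKM only in the cKO libraries, which let it enter the test, and its call was lost in 9 of 18 alternatives, among them each of the 6 libraries left out in turn (highest adjusted p 0.172). Col2a1, the collagen of cartilage, which neural progenitors also express, was at 10.5, 13.7 and 7.81 FPKM across controls, against 4.44, 3.14 and 6.66 FPKM in cKO and did not pass (log2 difference -1.03, SE 0.26, adjusted p = 0.126). In the erythroid list, 1 locus named Hba-a1,Hba-a2 had values of 2.14, 1.15 and 1.56 FPKM in the cKO libraries and was listed at 0 in each control (limma adjusted p = 0.0177). It too reached 1 FPKM only in cKO and lost its call in 7 of 18 alternatives, among them those without control 1, 2 or 3 or cKO 3 (highest adjusted p 0.167). The other locus of that name overlapped between groups and went the other way. It was at 7.80, 10.6 and 2.71 FPKM across controls, against 2.48, 5.12 and 3.72 FPKM in cKO (log2 difference -0.64). Of the 9 erythroid loci, 3 had a positive and 6 a negative log2 difference.

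Other loci with the library order of Dcn had narrower spans. Lamc3, a laminin chain, was at 1.01, 0.871 and 0.643 FPKM across controls, against 1.72, 2.27 and 0.990 FPKM in cKO. Anpep, an aminopeptidase of pericytes and meningeal cells, was at 1.09, 0.702 and 0.659 FPKM against 1.16, 1.65 and 0.874 FPKM. Both were named after their values were seen.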
